A study of Mus musculus with 17 samples.

Results

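The genes described here encode the proteins of the mitochondrial ribosome. They were chosen by name, as all genes on the array with a single symbol that starts with Mrpl or Mrps followed by a digit, which gave 77 of the 19938 genes tested. The rule for the names used no measured value, while a gene with several probe sets was represented by its brightest. Of the 77 genes, 50 encode proteins of the large subunit, 26 encode proteins of the small subunit and 1, Mrps36, carries the name but is now known as a component of the 2-oxoglutarate dehydrogenase complex. The names do not always give the subunit: Mrps30 and Mrps18a encode proteins of the large subunit. Mrpl53 shared its probe set with another symbol and was not analysed here.

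The mitochondrial ribosome sits in the matrix, attached to the inner membrane, and makes the few proteins encoded by mitochondrial DNA, which are core subunits of the respiratory chain and of ATP synthase. Its ribosomal RNAs come from mitochondrial DNA, but all of its proteins are encoded in the nucleus, made in the cytosol and imported. Part of these proteins have counterparts in the bacterial ribosome, while others exist only in mitochondria. In skeletal muscle, a tissue rich in mitochondria, their production has to be matched with that of the respiratory complexes.

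RNA came from skeletal muscle of 17 male wild type C57BL/6N mice aged 5 to 6 months, with 1 Affymetrix Mouse Gene 1.0 ST array per mouse. The STZ,BEZ mice (n = 5) had received streptozotocin and then bezafibrate in the diet, the STZ,SD mice (n = 5) had received streptozotocin and ate the standard diet, and the Con,SD mice (n = 7) had been mock-injected with citrate buffer and ate the standard diet. Streptozotocin destroys the insulin-producing beta cells of the pancreas, so both streptozotocin groups model insulin deficiency, and bezafibrate activates the peroxisome proliferator-activated receptors. According to the labels, streptozotocin was given at 65 mg/kg on 5 days to mice 10 to 16 weeks old, and bezafibrate was mixed into the chow at 0.25% or 0.5% for 8 weeks from 2 weeks after the injections. The strength that each mouse ate is not given, nor is the muscle that was taken.

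Values are log2 expression values, and a difference of 1 is a 2-fold difference. Correlations between arrays within a group lay between 0.987 and 0.993 in STZ,BEZ, between 0.988 and 0.994 in STZ,SD and between 0.952 and 0.991 in Con,SD. Con,SD mouse 1 stood apart, with a mean of 11.81 for 11 hepatocyte markers and of 9.01 for 10 testis germ cell markers, against 7.43 to 9.82 and 5.61 to 6.24 on the other Con,SD arrays. The 12 skeletal muscle fibre markers averaged 13.30 ± 0.02 in STZ,BEZ, 13.24 ± 0.06 in STZ,SD and 13.29 ± 0.04 in Con,SD (SD over mice). Single fibre markers differed more than this average, as given below with each comparison. In bulk muscle RNA a smaller number of cells of one type and less RNA per cell cannot be told apart.

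The first comparison, STZ,SD vs. Con,SD, asked how insulin deficiency changed the expression of the mitochondrial ribosome. In STZ,SD muscle 33 of the 77 genes were lower, 2 were higher and 42 did not pass the test (limma, Benjamini-Hochberg adjusted p under 0.1 over all 19938 genes). The genes called lower were 42.9% of the 77, beside 11.9% of all genes tested, and the genes called higher were 2.6%, beside 13.9% of all genes, with 25.8% of all genes called in either direction. The median log2 difference of the 77 genes was -0.17, beside -0.01 over all genes, and the differences ran from -0.74 to 0.40. All values of STZ,SD lay below all values of Con,SD for 19 of the 77 genes, which was the case for 3.43% of all genes, and above them for 1 gene, Mrps26, which was the case for 4.87% of all genes.

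Both subunits held genes that were lower in STZ,SD. Of the 50 large-subunit genes 25 were lower (50%) and 1 was higher (2%), with a median log2 difference of -0.19. Of the 26 small-subunit genes 8 were lower (30.8%) and 1 was higher (3.85%), with a median of -0.05. Of all genes 11.9% were lower and 13.9% were higher. Whether the subunits differed was not tested, since genes are not replicates. Averaged over the 50 large-subunit genes, the log2 values of the 5 STZ,SD mice were 8.85, 8.64, 8.70, 8.87 and 8.76, and those of the 7 Con,SD mice had a lowest value of 8.88, a mean of 8.98 ± 0.05 (SD) and a highest value of 9.02. Every STZ,SD mouse was thus below every Con,SD mouse for the large subunit. For the 26 small-subunit genes the STZ,SD mice had 8.56, 8.35, 8.39, 8.52 and 8.46, against 8.43 to 8.66 in Con,SD, and the groups overlapped. STZ,SD mice 2 and 3 were the lowest of their group in both subunits.

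**Figure D1:**
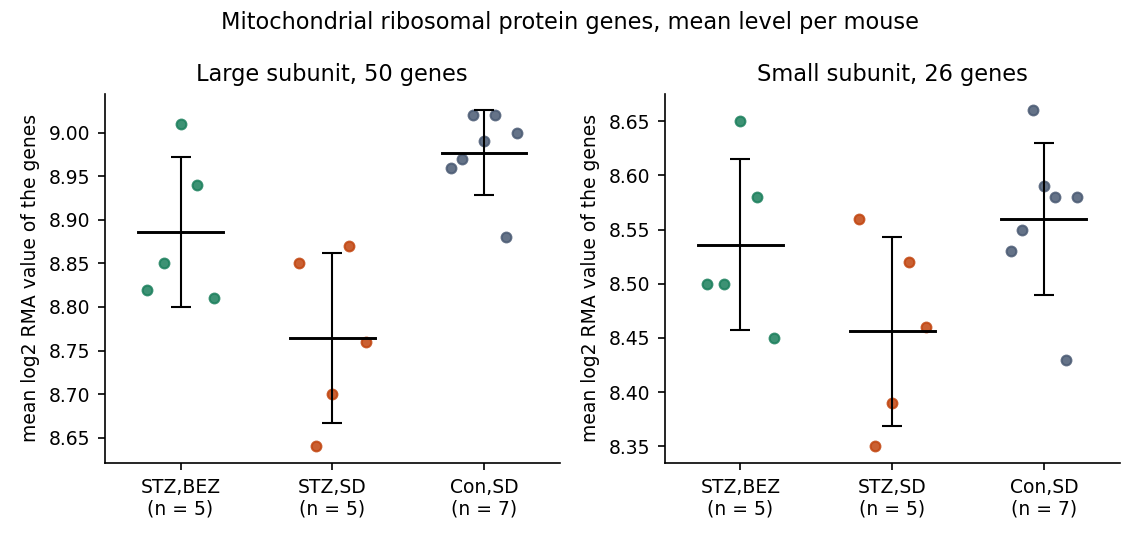
Mean log2 value of the 50 large-subunit genes (left) and the 26 small-subunit genes (right) in each mouse of STZ,BEZ, STZ,SD and Con,SD. Points are mice, the long line is the group mean and the bar is its SD; the 5 STZ,SD mice (8.64 to 8.87) lie below the 7 Con,SD mice (8.88 to 9.02) for the large subunit and overlap with them for the small subunit.

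Among the large-subunit proteins with a bacterial counterpart, 13 of 30 genes were lower and 1 was higher. Mrpl15 had the largest fall of all 77 genes. Its log2 values were 9.22, 8.70, 8.78, 9.19 and 8.91 in the STZ,SD mice, against 9.41 (lowest), 9.75 (median) and 9.80 (highest) in the Con,SD mice. The groups did not overlap, and expression fell by 0.74 ± 0.09 (SE) on the log2 scale, which was 1.67-fold lower (limma, adjusted p = 5.52e-05). Mrpl3, whose protein reaches towards the peptidyl transferase centre, had 9.16, 8.81, 9.06, 9.40 and 9.03 in STZ,SD, against 9.64, 9.71 and 9.89 (lowest, median and highest) in Con,SD, and was 1.55-fold lower (-0.64 ± 0.09, adjusted p = 0.000121). Mrpl11, at the base of the stalk where the translation GTPases bind, was lower by the same factor (-0.63 ± 0.10, adjusted p = 0.000249). Its partner in the stalk, Mrpl12, which in human cells also binds the mitochondrial RNA polymerase, fell by 0.26 ± 0.06 (adjusted p = 0.00628), with 9.28 to 9.46 in STZ,SD and 9.54 to 9.75 in Con,SD.

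Among the large-subunit proteins found only in mitochondria, 12 of 20 genes were lower and 0 were higher, although 2 of the 20 had a positive difference. Mrpl58, which in human cells is a peptidyl-tRNA hydrolase that frees stalled ribosomes and is also built into the large subunit, had 8.29, 8.17, 8.21, 8.52 and 8.32 in STZ,SD, against a narrow range of 8.83 to 8.93 in Con,SD with a median of 8.88. It was 1.49-fold lower without overlap (-0.58 ± 0.07, adjusted p = 4.48e-05). Mrpl40 fell by 0.59 ± 0.07 (adjusted p = 4.39e-05) and Mrpl42 by 0.55 ± 0.14 (adjusted p = 0.0093). Mrpl42 had the widest spread of the genes named here, with 8.18 in STZ,SD mouse 2 and 9.26 in STZ,SD mouse 1, which lay within the Con,SD range of 9.22 to 9.67. Mrpl45, which anchors the human ribosome at the inner membrane, fell by 0.40 ± 0.08 (adjusted p = 0.00252). Mrps18a was called lower (-0.19 ± 0.07, adjusted p = 0.0693), but the call was lost without any 1 of STZ,SD mice 2, 3 and 5 and of Con,SD mice 3, 4 and 5. It was also lost after a second quantile normalization, and in 9 of 32 alternatives in all. The differences were -0.23 to -0.16 over all alternatives. Mrps30 did not pass the test (-0.14 ± 0.10, adjusted p = 0.365), and passed it without Con,SD mouse 6 (-0.23).

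In the small subunit, Mrps23, found only in mitochondria, had the smallest adjusted p of all 77 genes. Its log2 values were 9.64, 9.41, 9.45, 9.61 and 9.38 in STZ,SD, against 9.93 (lowest), 10.18 (median) and 10.22 (highest) in Con,SD. It was 1.54-fold lower without overlap (-0.63 ± 0.07, adjusted p = 9.59e-06). Mrps11, a protein of the platform with a bacterial counterpart, had 8.08, 7.69, 7.47, 7.83 and 8.04 in STZ,SD, against 8.22, 8.28 and 8.37 (lowest, median and highest) in Con,SD, and was 1.38-fold lower (-0.46 ± 0.09, adjusted p = 0.00139). Mrps7, an early binder of the small ribosomal RNA, fell by 0.40 ± 0.07 (adjusted p = 0.000602), and Mrps27, a protein with pentatricopeptide repeats, fell by 0.32 ± 0.09 (adjusted p = 0.0173). The 3 genes named Mrps18 encode related proteins at different places in the ribosome, and beside Mrps18a in the large subunit, Mrps18b fell by 0.25 ± 0.06 (adjusted p = 0.0073) while Mrps18c had a difference of 0.04 ± 0.14 (adjusted p = 0.859). Mrps36, the gene outside the ribosome, had a difference of -0.30 ± 0.14 (adjusted p = 0.143). It was called lower in 5 of 32 alternatives, among them the significance analysis of microarrays and the fit without Con,SD mouse 6 (-0.38 to -0.14 over all).

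Only 2 genes were called higher in STZ,SD. Mrps26, a small-subunit protein found only in mitochondria, had 7.63, 7.95, 7.76, 7.76 and 7.73 in STZ,SD, against 6.99 (lowest), 7.48 (median) and 7.54 (highest) in Con,SD. It was 1.32-fold higher without overlap (0.40 ± 0.09, adjusted p = 0.0046), and the lowest Con,SD value was that of mouse 1. Mrpl22, which lines the exit tunnel for the nascent chain, had 7.25, 7.10, 7.28, 7.61 and 7.47 in STZ,SD, against 6.75, 7.13 and 7.34 (lowest, median and highest) in Con,SD. The groups overlapped and the difference was 0.28 ± 0.11 (adjusted p = 0.0796). The call on Mrpl22 was lost without any 1 of STZ,SD mice 3, 4 and 5 and of Con,SD mice 1, 6 and 7, with differences of 0.21 to 0.29 there. It was also lost under both other scalings and with the hepatocyte covariate, and in 12 of 32 alternatives in all.

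**Figure D2:**
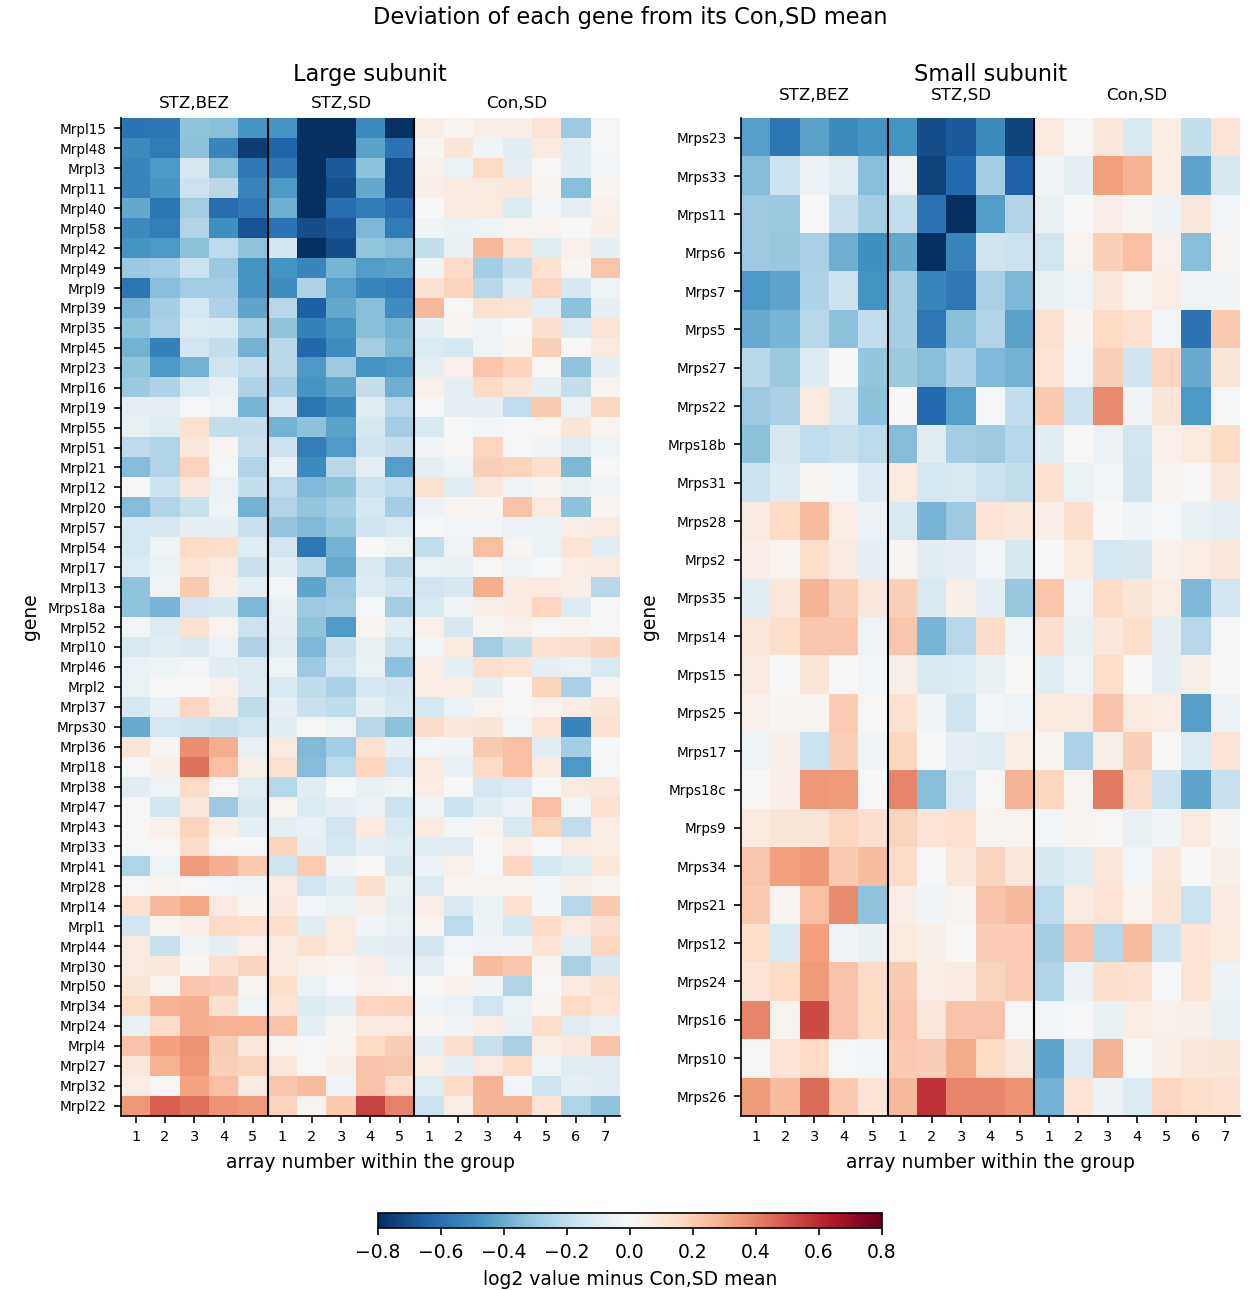
Each row is a gene and each column is 1 array of STZ,BEZ, STZ,SD or Con,SD; colour gives the log2 value minus the Con,SD mean of that gene, and values beyond the scale take its end colours. Genes are ordered by their STZ,SD over Con,SD difference, from Mrpl15 (-0.74) to Mrpl22 (0.28) in the large subunit and from Mrps23 (-0.63) to Mrps26 (0.40) in the small subunit.

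The share of genes called also depends on how bright a probe set is, so the 77 genes were set beside all genes of the same signal. Brightness differs between probe sets and does not rank the amounts of their transcripts. Among the brightest 26 members (mean log2 value 9.23 to 11.84) 57.7% were lower, beside 26% of all genes in that range. Among the middle 25 it was 48% beside 20%, and among the dimmest 26 (6.76 to 8.28) 23.1% beside 10.3%. The members thus had a larger share of lower genes in each of the 3 ranges.

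The promoters of 6 of these genes are shown because the GABP/ETS motif lay in the windows of genes that were lower and of genes that were higher in STZ,SD, with Mrps11 added for its YY1 motif and its paired start with Mrpl46. Each line is the RefSeq sequence (GRCm38.p6) from 250 bases before to 50 bases after the annotated gene start, 5′ to 3′ along the gene. Capitals mark CCGGAAG, the core bound by GABP and other ETS factors, GCGCATGC, bound by NRF-1, and AAGATGGCG, bound by YY1, searched on both strands with overlapping matches kept. Mrps23, Mrpl58, Mrpl3 and Mrps11 were lower in STZ,SD, and Mrps26 and Mrpl22 were higher.
Mrps23 (chr11:88204138-88204437, plus strand): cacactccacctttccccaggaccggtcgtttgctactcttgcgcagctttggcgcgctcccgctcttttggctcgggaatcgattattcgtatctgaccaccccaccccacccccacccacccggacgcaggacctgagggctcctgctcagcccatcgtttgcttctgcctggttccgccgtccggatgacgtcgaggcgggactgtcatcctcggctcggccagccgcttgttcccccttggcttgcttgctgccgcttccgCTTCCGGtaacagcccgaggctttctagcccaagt
Mrpl58 (chr11:115403502-115403801, plus strand): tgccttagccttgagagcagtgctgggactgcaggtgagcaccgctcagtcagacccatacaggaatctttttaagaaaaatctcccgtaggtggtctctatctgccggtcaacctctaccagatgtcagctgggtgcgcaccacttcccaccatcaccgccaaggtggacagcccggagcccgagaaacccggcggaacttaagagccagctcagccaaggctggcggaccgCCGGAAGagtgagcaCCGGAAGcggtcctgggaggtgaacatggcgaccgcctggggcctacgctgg
Mrpl3 (chr9:105053018-105053317, plus strand): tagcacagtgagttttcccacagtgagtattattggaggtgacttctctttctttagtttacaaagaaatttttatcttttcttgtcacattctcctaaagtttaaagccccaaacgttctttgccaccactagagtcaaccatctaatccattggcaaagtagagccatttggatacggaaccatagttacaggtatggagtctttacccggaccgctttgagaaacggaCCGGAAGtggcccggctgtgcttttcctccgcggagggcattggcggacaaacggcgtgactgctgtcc
Mrps11 (chr7:78782881-78783180, plus strand): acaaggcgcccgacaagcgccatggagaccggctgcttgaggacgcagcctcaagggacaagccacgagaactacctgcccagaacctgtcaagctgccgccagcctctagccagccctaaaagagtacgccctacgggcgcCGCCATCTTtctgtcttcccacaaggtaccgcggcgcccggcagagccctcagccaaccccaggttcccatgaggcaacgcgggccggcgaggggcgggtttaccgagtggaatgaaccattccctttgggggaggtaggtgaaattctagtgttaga
Mrps26 (chr2:130563507-130563806, plus strand): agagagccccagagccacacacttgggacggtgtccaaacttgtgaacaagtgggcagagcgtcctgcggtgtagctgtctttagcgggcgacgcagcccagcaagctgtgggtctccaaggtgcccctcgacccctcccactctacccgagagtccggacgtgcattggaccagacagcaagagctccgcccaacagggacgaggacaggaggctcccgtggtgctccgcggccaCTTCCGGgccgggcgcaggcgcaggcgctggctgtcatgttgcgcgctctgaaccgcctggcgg
Mrpl22 (chr11:58171414-58171713, plus strand): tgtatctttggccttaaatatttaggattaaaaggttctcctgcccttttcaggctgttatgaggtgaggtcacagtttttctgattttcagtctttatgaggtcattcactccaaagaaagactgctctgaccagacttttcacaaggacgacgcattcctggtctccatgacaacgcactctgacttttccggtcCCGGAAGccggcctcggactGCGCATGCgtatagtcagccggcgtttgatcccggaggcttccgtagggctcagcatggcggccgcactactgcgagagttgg

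Promoter windows were found for 68 of the 77 genes, 74 windows in all, and 9 genes were not matched. The GABP/ETS motif was in 33.8% of the members' windows, beside 11.6% of the 21262 windows of all protein-coding genes in the table. The NRF-1 motif was in 10.8% beside 3.51%, the YY1 motif in 10.8% beside 1.83%, and at least 1 of the 3 motifs in 47.3% beside 15.7%. A motif was present in 47.2% of the windows of members lower in STZ,SD and in 44.4% of those of members not called. A neighbouring gene on the opposite strand started within 1000 bases upstream, or a short way downstream, in 36.5% of the members' windows, beside 8.15% of all. Mrps11 and Mrpl46 are such a pair, with 42 bases between their starts, and both were lower in STZ,SD (Mrps11 -0.46 ± 0.09 and Mrpl46 -0.17 ± 0.06, adjusted p = 0.0644 for Mrpl46). The call on Mrpl46 was lost without any 1 of STZ,SD mice 2, 3 and 5 and of Con,SD mice 3 and 4. It was also lost with array weights and with SAM, and in 10 of 32 alternatives in all. The differences were -0.21 to -0.10 over all alternatives. A match describes the letters only and does not show that a factor binds there.

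Of 10 factors known to bind such promoters or to act with those that do, 4 were higher in STZ,SD, 0 were lower and 6 did not pass the test. The higher ones were 40% of this list, beside 13.9% of all genes. Nrf1, which encodes NRF-1, rose by 0.32 ± 0.07 (limma, adjusted p = 0.00331), Yy1 by 0.25 ± 0.05 (adjusted p = 0.00409) and Gabpa, the DNA-binding subunit of GABP, by 0.20 ± 0.05 (adjusted p = 0.0148). Myc, a driver of ribosome production, rose by 1.01 ± 0.15 (adjusted p = 0.00021). Ppargc1a and Ppargc1b, the PGC-1 coactivators of mitochondrial biogenesis, had differences of 0.05 ± 0.07 and 0.15 ± 0.08, and Pprc1, Esrra, Gabpb1 and Gabpb2 did not pass the test either. These are transcript levels and give no measure of the factors' activity.

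Other nuclear genes of mitochondrial translation were counted in the same fit, in which 11.9% of all genes were lower and 13.9% were higher. The genes of mitochondrial DNA, among them those of its ribosomal RNAs, were not matched to any gene tested and are not described. Of 12 measured translation factors 8 were lower in STZ,SD (66.7%) and 0 were higher, with a median of -0.28. Among them were Guf1, a GTPase related to bacterial elongation factors (-0.41 ± 0.08, adjusted p = 0.00259), Mrrf, the ribosome recycling factor (-0.36 ± 0.08, adjusted p = 0.00612), and Mtif3, an initiation factor (-0.27 ± 0.07, adjusted p = 0.00818). Of 27 genes of ribosome assembly and ribosomal RNA modification 7 were lower (25.9%) and 2 were higher (7.41%). The lower ones were led by Eral1, a GTPase that binds the small ribosomal RNA (-0.48 ± 0.07, adjusted p = 0.000273). The higher ones were led by the RNA helicase Dhx30 (0.32 ± 0.06, adjusted p = 0.00165). Of 19 aminoacyl-tRNA synthetases and related enzymes 5 were lower (26.3%) and 1 was higher (5.26%). Of 4 measured ribosomal proteins without an Mrp symbol, Ptcd3 (-0.47 ± 0.12, adjusted p = 0.0107) and Dap3 (-0.19 ± 0.07, adjusted p = 0.075) were lower, Gadd45gip1 was higher (0.16 ± 0.05, adjusted p = 0.0524) and Chchd1 did not pass the test. The call on Dap3 was lost without any 1 of STZ,SD mice 2, 3 and 5 and of Con,SD mice 1 and 3. It was also lost with array weights and the hepatocyte covariate, and in 9 of 32 alternatives in all (-0.24 to -0.14 over all). The call on Gadd45gip1 was lost without STZ,SD mouse 1, under median centring, with the hepatocyte covariate and with SAM. In all it was lost in 6 of 32 alternatives (0.11 to 0.18 over all).

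The proteins of the cytosolic ribosome moved the other way. Of 53 such genes 27 were higher in STZ,SD and 2 were lower, with a median of 0.18. These were 50.9% and 3.77% of the list, beside 13.9% and 11.9% of all genes. Respiratory complex I is an enzyme that also has subunits made by the mitochondrial ribosome. Of 34 of its subunits 16 were lower (47.1%) and 1 was higher (2.94%), with a median of -0.20. Mitochondrial ribosomal proteins and the 34 complex I subunits counted here are both encoded in the nucleus and imported.

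**Figure D3:**
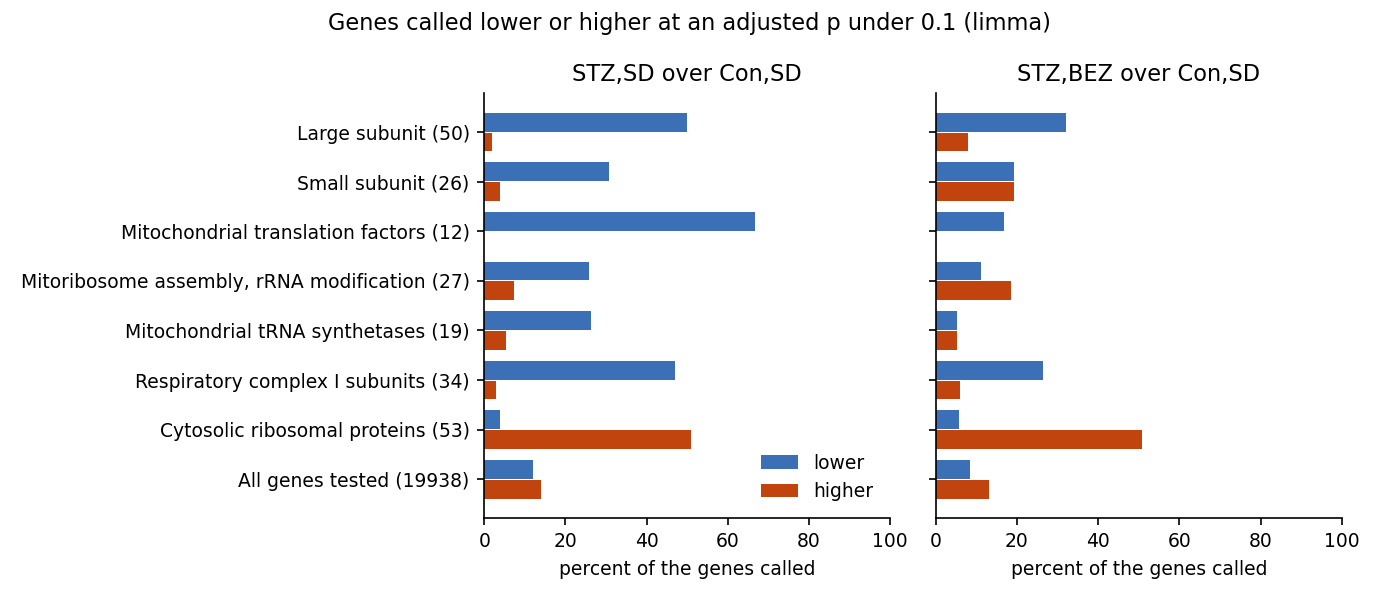
Percent of the genes of each list called lower (blue) or higher (red-brown) by limma at an adjusted p under 0.1 in STZ,SD over Con,SD (left) and STZ,BEZ over Con,SD (right), with the number of genes in brackets and all 19938 genes at the bottom. In the left panel 50% of the large-subunit genes and 66.7% of the translation factors are lower, while 50.9% of the cytosolic ribosomal proteins are higher.

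Some markers of other cells also differed between the groups. The 11 hepatocyte markers averaged 8.43 ± 0.39 in STZ,SD and 9.17 ± 1.37 in Con,SD. All 11 differences were negative and 1 was called lower (9.09%, beside 11.9% of all genes). The 8 endothelial markers averaged 8.94 ± 0.11 in STZ,SD and 8.71 ± 0.10 in Con,SD. Of these, 5 of 8 were called higher (62.5%, beside 13.9% of all genes). The 8 slow fibre markers averaged 8.70 ± 1.43 in STZ,SD and 8.26 ± 1.04 in Con,SD, with 0 of 8 called. Of the 12 skeletal muscle fibre markers 1 was called lower, at -0.75, and 2 were called higher. These were 8.33% and 16.7% of that list, beside 11.9% and 13.9% of all genes. With the hepatocyte level as a covariate 37 members were lower. Without Con,SD mice 1, 3 and 4 together, which left fewer controls in the fit, 27 were lower. Mouse 1 had the highest hepatocyte level of the controls (11.81), but mouse 4 had the lowest (7.43), and mouse 2 was kept at 9.82. With slow fibre markers in the fit, an alternative added after the data were seen, 32 members were lower. All 10 testis germ cell markers had negative differences (median -0.70), with 0 of 10 called. Their mean was 9.01 on Con,SD mouse 1, against 5.61 to 6.24 on the other Con,SD arrays and 5.50 to 5.64 in STZ,SD. The testis difference thus came largely from that mouse. The 6 adipocyte markers averaged 8.72 ± 0.50 in STZ,SD and 9.16 ± 0.53 in Con,SD. Of these, 1 of 6 was called lower (16.7%, beside 11.9% of all genes). The part of endothelial and adipocyte RNA in the differences was not tested.

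The second comparison, STZ,BEZ vs. STZ,SD, asked whether bezafibrate moved these genes in the diabetic mice. None of the 77 genes passed the test in either direction with limma (smallest adjusted p = 0.778) or with the significance analysis of microarrays (SAM). Of all genes tested 0.0201% were called higher by limma, which was 4 genes, and 0% were called lower. SAM called 23 of all genes higher and 1 lower. At an unadjusted p under 0.05 limma gave 15 of the 77 genes, all higher, and 1134 of the 19938. The differences of the members were small, from -0.14 to 0.28, and 67 of 77 (87%) were positive, beside 50.7% of all genes. Their median was 0.11, beside 0.00 over all genes. Some marker lists also moved in 1 direction, with 0 of their genes called. All 11 hepatocyte markers were lower on average in STZ,BEZ (median -0.59). All 8 slow fibre markers (median 0.49) and all 6 adipocyte markers (median 0.38) were higher. Other lists were mixed, with positive differences in 4 of 8 endothelial markers (median 0.03) and 5 of 8 macrophage and leukocyte markers (0.04). Of the 10 testis germ cell markers 4 were positive (median -0.04). The 12 skeletal muscle fibre markers differed by -0.03 to 0.49, with 8 positive and 0 called. The members' median was 0.10 with the hepatocyte covariate and 0.11 with the slow fibre covariate, and the part of adipocyte RNA was not tested. Averaged over the large subunit, the STZ,BEZ mice had 8.82, 8.85, 9.01, 8.94 and 8.81, against 8.85, 8.64, 8.70, 8.87 and 8.76 in the STZ,SD mice, and the groups overlapped.

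Mrpl15 had the largest difference, with log2 values of 9.11, 9.12, 9.38, 9.36 and 9.23 in STZ,BEZ, against 9.22, 8.70, 8.78, 9.19 and 8.91 in STZ,SD. The difference was 0.28, with a 95% interval of 0.07 to 0.49 before any adjustment. STZ,SD mice 1 and 4 lay within the STZ,BEZ range, so the groups overlapped. Mrps33 differed by 0.26 (interval -0.03 to 0.56), Mrps11 by 0.25 (0.05 to 0.45), Mrpl11 by 0.25 (0.03 to 0.47) and Mrpl3 by 0.24 (0.03 to 0.44). Below 0 were Mrps10 at -0.14 (-0.34 to 0.05), Mrps26 at -0.12 (-0.33 to 0.08) and Mrps18a at -0.08 (-0.24 to 0.08). The intervals were wide beside the differences, so the lack of a call does not show that the groups were alike.

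The values of STZ,BEZ and STZ,SD did not overlap for 2 genes, which was the case for 1.16% of all genes. Mrps34, a small-subunit protein found only in mitochondria, had 8.13, 8.24, 8.26, 8.12 and 8.16 in STZ,BEZ, against 8.06, 7.90, 8.00, 8.09 and 8.00 in STZ,SD. The difference was 0.17 (interval 0.05 to 0.29). Mrpl2, which has a bacterial counterpart, had 8.36 to 8.50 in STZ,BEZ and 8.20 to 8.34 in STZ,SD, a difference of 0.15 (0.01 to 0.30). All 12 translation factors and all 34 complex I subunits had a difference of 0 or above, with 0 of either called, while the cytosolic ribosomal proteins had a median of -0.01.

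**Figure D4:**
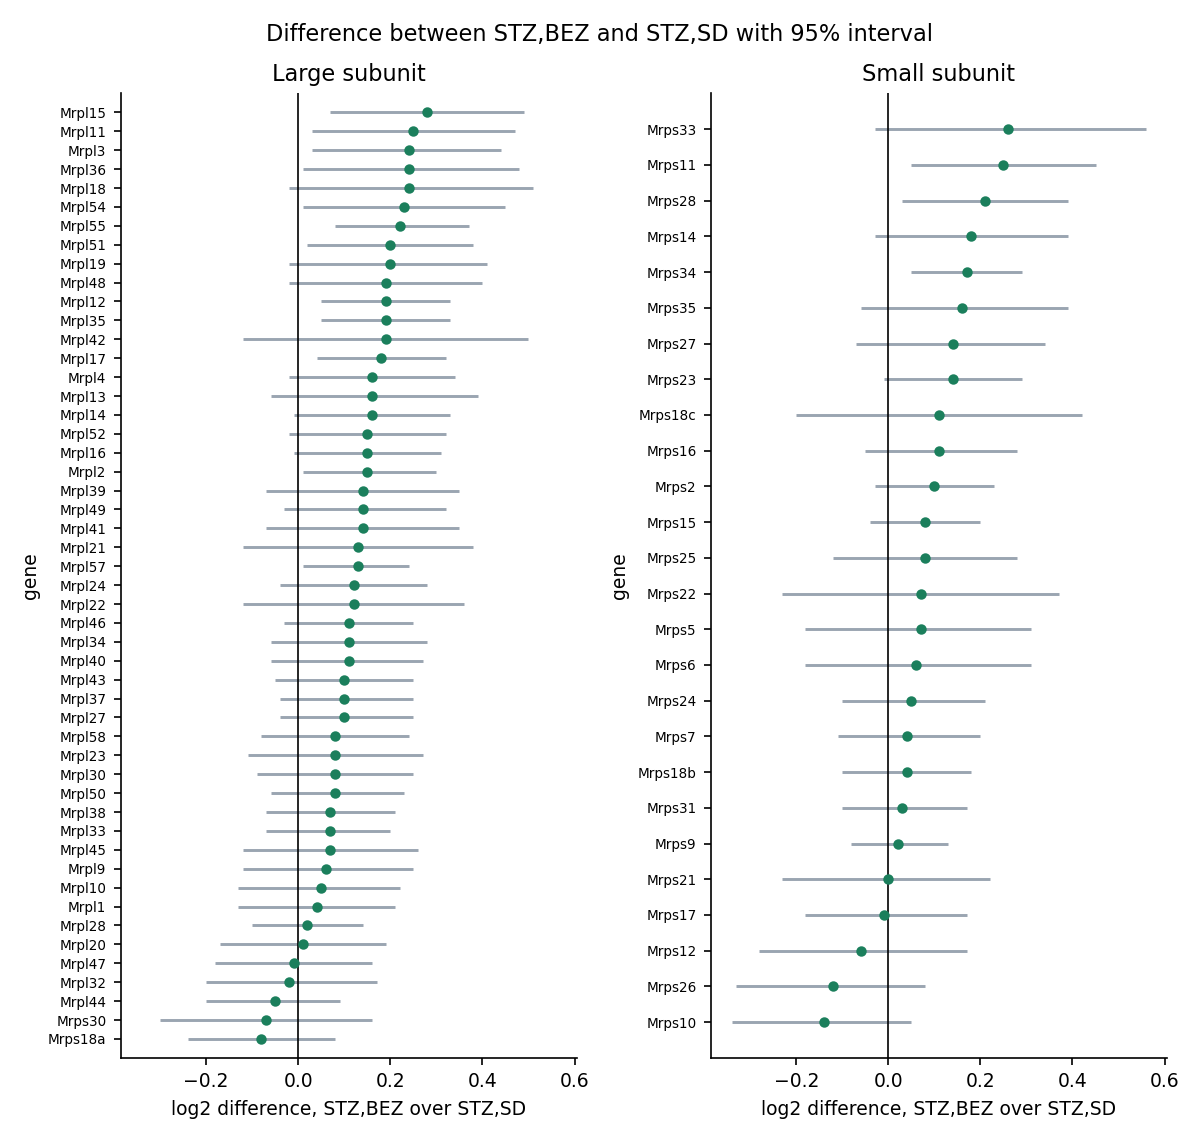
Log2 difference of STZ,BEZ over STZ,SD for each gene (point) with its unadjusted 95% interval from limma (line), in the large subunit (left) and the small subunit (right). The points run from -0.14 for Mrps10 to 0.28 for Mrpl15, most lie right of 0, and 0 of the genes passed the adjusted test.

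The third comparison, STZ,BEZ vs. Con,SD, asked how far the treated diabetic mice were from the controls. It shares its arrays with the other comparisons, so its calls are no independent evidence. In STZ,BEZ 21 of the 77 genes were lower, 9 were higher and 47 did not pass the test. The lower genes were 27.3% of the members, beside 8.45% of all genes, and the higher ones 11.7%, beside 13.1%, with 21.6% of all genes called in either direction. The median difference was -0.03. The groups did not overlap for 12 lower genes and 3 higher genes, which was the case for 2.5% and 6.01% of all genes. The split depended on the scaling, with 5 higher and 25 lower after a second quantile normalization, and the higher genes numbered 4 without STZ,BEZ mouse 3.

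In the large subunit 16 of 50 genes were lower (32%) and 4 were higher (8%). In the small subunit 5 of 26 were lower (19.2%) and 5 were higher (19.2%). Of all genes 8.45% were lower and 13.1% were higher. Mrpl48 was lowest, with 9.87, 9.82, 10.05, 9.85 and 9.62 in STZ,BEZ, 9.74, 9.32, 9.47, 9.95 and 9.79 in STZ,SD, and 10.29 (lowest), 10.37 (median) and 10.48 (highest) in Con,SD. Both streptozotocin groups lay wholly below the controls, but the only probe set of Mrpl48 may not measure the gene alone, as described below. The difference from Con,SD was -0.54 ± 0.09 (SE) in STZ,BEZ (adjusted p = 0.00109) and -0.73 ± 0.09 in STZ,SD (adjusted p = 6.52e-05). Mrps23 had 9.68, 9.54, 9.69, 9.61 and 9.65 in STZ,BEZ and differed from Con,SD by -0.49 ± 0.07 (adjusted p = 0.000139). Mrpl58 had 8.37, 8.33, 8.64, 8.39 and 8.19 in STZ,BEZ, a difference of -0.49 ± 0.07 (adjusted p = 0.000236), and Mrpl40 likewise differed by -0.49 ± 0.07 (adjusted p = 0.000348). Mrpl15 differed by -0.46 ± 0.09 and Mrpl3 by -0.40 ± 0.09.

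Other genes that had been lower in STZ,SD did not pass the test in STZ,BEZ. Mrpl12 had 9.62, 9.46, 9.72, 9.58 and 9.44 in STZ,BEZ, which overlapped with the Con,SD range of 9.54 to 9.75, and differed by -0.07 ± 0.06 (adjusted p = 0.477). Mrpl55, which has a bacterial counterpart, differed from Con,SD by -0.08 ± 0.06 in STZ,BEZ (adjusted p = 0.42) and by -0.30 ± 0.06 in STZ,SD (adjusted p = 0.00312). Mrps11 differed by -0.21 ± 0.09 in STZ,BEZ (adjusted p = 0.108). It was called lower in 10 of 32 alternatives, among them SAM, array weights and second quantile normalization (-0.27 to -0.17 over all alternatives). The test between STZ,BEZ and STZ,SD did not call any of the 3, so a change of call against Con,SD does not show that bezafibrate altered them. Mrps18a had its lowest mean in STZ,BEZ, -0.27 ± 0.07 from Con,SD (adjusted p = 0.0161).

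Of the 9 genes higher in STZ,BEZ than in Con,SD, Mrpl22 had the largest difference (0.40 ± 0.11, adjusted p = 0.0183), with 7.42, 7.55, 7.51, 7.43 and 7.41 in STZ,BEZ and 6.75 to 7.34 in Con,SD. Mrps34 had 8.12 to 8.26 in STZ,BEZ, 7.90 to 8.09 in STZ,SD and 7.78 to 8.00 in Con,SD, where the last 2 groups overlapped. It was 1.21-fold higher in STZ,BEZ than in Con,SD (0.27 ± 0.05, adjusted p = 0.00267). Mrps16, which has a bacterial counterpart, rose by 0.27 ± 0.07 (adjusted p = 0.0213). Mrps26 rose by 0.27 ± 0.09 (adjusted p = 0.0477), a call lost without STZ,BEZ mouse 3 (0.23), after second quantile normalization (0.21), with the hepatocyte covariate (0.18) and without Con,SD mice 1, 3 and 4 together (0.14). Mrpl4 (0.24 ± 0.08) lost its call without STZ,BEZ mouse 2 (0.22) or 3 (0.21) and without Con,SD mice 1, 3 and 4 together (0.11). Mrps24 (0.20 ± 0.07) lost it without STZ,BEZ mouse 3 (0.16) or 4 (0.19), under both other scalings (0.19 and 0.16) and with the hepatocyte covariate (0.09). Mrpl24 (0.19 ± 0.07) lost it without any 1 of STZ,BEZ mice 2 to 5 and of Con,SD mice 2, 4, 6 and 7, with differences of 0.17 to 0.20 there, and in 16 of 32 alternatives in all (0.13 to 0.25). The call on Mrps9 (0.11 ± 0.04, adjusted p = 0.095) was lost in 25 of 32 alternatives.

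**Figure D5:**
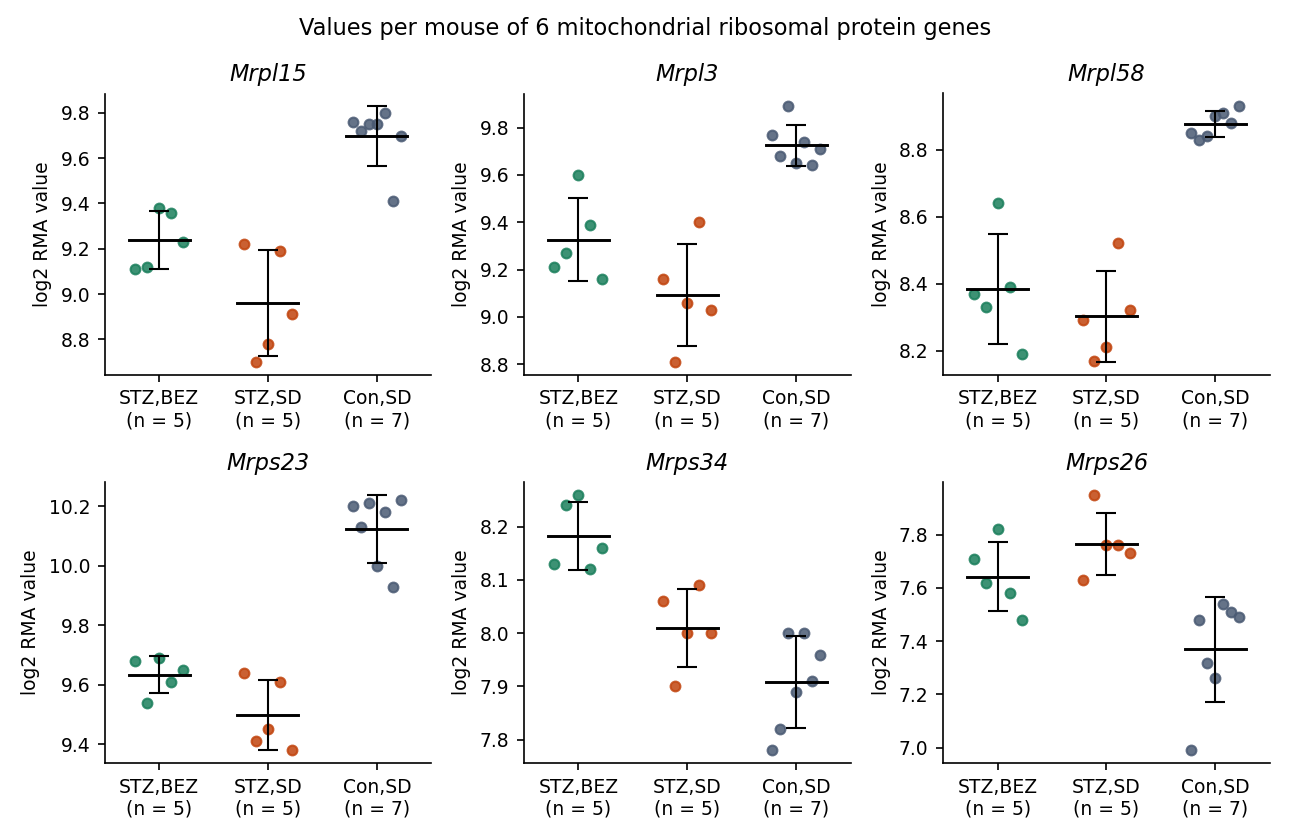
Log2 values of 6 genes in each mouse of STZ,BEZ, STZ,SD and Con,SD; points are mice, the long line is the mean and the bar is its SD, and the vertical axes do not start at 0. Mrpl15, Mrpl3, Mrpl58 and Mrps23 lie below Con,SD in both streptozotocin groups, Mrps34 is highest in STZ,BEZ (8.12 to 8.26) and Mrps26 has its highest mean in STZ,SD (7.63 to 7.95).

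Beside these genes, hepatocyte markers averaged 7.87 ± 0.32 in STZ,BEZ and 9.17 ± 1.37 in Con,SD. Of the 11 markers 6 were called lower (54.5%, beside 8.45% of all genes). Slow fibre markers averaged 9.25 ± 0.73 in STZ,BEZ and 8.26 ± 1.04 in Con,SD, with 0 of 8 called. Of the 12 skeletal muscle fibre markers 2 were called higher (16.7%, beside 13.1% of all genes) and 0 were called lower. Endothelial markers averaged 8.96 ± 0.06 in STZ,BEZ and 8.71 ± 0.10 in Con,SD, with a median difference of 0.23. Of the 8 endothelial markers 5 were called higher (62.5%, beside 13.1% of all genes). Their part in the differences was not tested. With the hepatocyte level as a covariate 19 members were lower and 5 were higher. Without Con,SD mice 1, 3 and 4 together, which left fewer controls in the fit, 15 were lower and 6 were higher.

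The probe sets of 5 genes may not measure the gene alone. For Mrpl27, Mrpl41, Mrpl48, Mrpl51 and Mrps33 the probe set used has an ID whose neighbours lie on another chromosome than the gene, and RefSeq lists pseudogenes of Mrpl27 and Mrpl48 on those chromosomes. With the other probe set of each gene, an alternative added after the data were seen, Mrps33 had -0.30 in place of -0.47 and stayed called in STZ,SD vs. Con,SD, while Mrpl51 had -0.14 in place of -0.30 and lost its call. In STZ,BEZ vs. Con,SD that probe set of Mrpl51 was called higher at 0.21. Mrpl41 had 0.17 in place of -0.03, without a call in either, and the call on Mrpl27 in STZ,BEZ vs. Con,SD was lost at 0.14 in place of 0.22. Mrpl48 had no other probe set, so its fall rests on this one. With these probe sets exchanged and Mrpl48 left out, 31 genes were lower in STZ,SD and 20 in STZ,BEZ, both against Con,SD. Mrpl47 and Mrps5 also had a second, dimmer probe set. That of Mrpl47 averaged 7.36 in Con,SD and 7.06 in STZ,SD, beside 7.55 and 7.47 on the one used. That of Mrps5 averaged 8.58 in Con,SD and 7.99 in STZ,SD, beside 9.08 and 8.71.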

How the data were processed

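Expression was measured in total RNA of skeletal muscle with 1 array per mouse. The deposited values are log2 expression values that the authors made with RMA (background correction, quantile normalization and summary per probe set), using Affymetrix Expression Console 1.2 according to the submitters' processing notes. Quantile normalization removes a shift common to most genes. The values ran from 2.76 to 14.61, and array medians from 6.22 to 6.32. Detection calls, scan dates and batches were not used here, and the number of arrays limits the precision.

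Of 35556 probe sets, 21789 had 1 gene symbol. Where a gene had several, the brightest on average across the 17 arrays stood for it, giving 19938 genes. The 77 members came from 85 probe sets, and 8 members had several. All groups were fitted together by limma 3.58.1 under R 4.3.3 with an empirical Bayes prior, and genes were called at a Benjamini-Hochberg adjusted p under 0.1 over all genes of a comparison. SAM, the method the study names, was run as an alternative with up to 100 permutations. Groups came from the labels, which number the mice of a group as biological replicates. The methods text differs from the labels in the streptozotocin dose, in giving only the higher bezafibrate strength and in naming controls without a mock injection. The lists of genes were written by function. Members, lists and the rule for named genes were chosen with earlier results of these data known.

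Genes are named by this rule: the 10 largest called rises and falls against Con,SD in each streptozotocin group, the 5 largest differences each way in STZ,BEZ vs. STZ,SD, members named for their role, up to 4 genes of each list of mitochondrial translation, the promoter factors, members with several probe sets and members on which 1 mouse stood apart. Mrpl2, Mrpl45, Mrpl46, Mrpl55, Mrps18c and Mrps27, and in single comparisons Mrpl3, Mrps7, Mrps11 and Mrps34, fall outside it and were chosen after their values were seen. The rule also picked genes that are not described here, such as Mrpl9 and Mrpl23. The fits were tested on simulated data with independent noise and known changes in 200 of 19938 genes per comparison. A log2 change of 0.3 was recovered for 62% of such genes in STZ,SD vs. Con,SD. In STZ,BEZ vs. STZ,SD it was recovered for 34%. A change of 1 was recovered for 98% in both. The alternatives tried were median centring, a second quantile normalization, the 30% dimmest genes left out, all probe sets tested, probe sets averaged per gene, fits of only the groups compared, array weights, a trended and robust prior, an adjusted p under 0.05, a replicate block, hepatocyte and slow fibre levels as covariates, Con,SD mice 1, 3 and 4 left out, each mouse left out, and probe sets on the gene's own chromosome.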

Additional observations from a re-analysis of the deposited data

Results flagged for a closer look

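Among 240 sets of values, each 1 gene or subunit mean in 1 group, 15 had a mouse whose highest or lowest value stood apart from the rest by Dixon's test at the 95% level, where chance gives about 1 in 20. Of these, 6 were the lowest value on Con,SD mouse 6. They were Mrpl11 (8.98, next lowest 9.34), Mrpl15 (9.41, next 9.70), Mrpl18 (8.94, next 9.34), Mrps25 (7.43, next 7.82), Mrps30 (6.39, next 6.90) and Mrps5 (8.49, next 9.06). That mouse also had the lowest mean over the 77 genes among the controls (8.71, against 8.79 to 8.88 in the others), and without it 36 members were lower in STZ,SD. The other Con,SD values were Mrpl28 on mouse 1 (lowest, 8.45), Mrpl51 on mouse 3 (highest, 10.73) and Mrpl52 on mouse 2 (lowest, 8.51). In STZ,SD, mouse 1 was highest for Mrpl33 (7.39) and Mrps31 (8.15). In STZ,BEZ, Mrpl19 was lowest on mouse 5 (8.07), Mrps30 lowest on mouse 1 (6.52), Mrpl33 highest on mouse 3 (7.36) and Mrps25 highest on mouse 4 (8.07).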

How the results depend on the processing

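The count of members lower in STZ,SD vs. Con,SD stayed between 27 and 37 over all alternatives (33 as reported), and between 29 (without STZ,SD mouse 2 or 3) and 36 when 1 mouse was left out. SAM also gave 33, of which 30 were the same genes. The replicate block gave 34 lower genes, 30 of them the same, and 22 lower and 6 higher genes in STZ,BEZ vs. Con,SD. Mice of 1 number share only that number, and their deviations correlated between -0.239 and 0.083. The small count of higher genes (2) was 1 under median centring, second quantile normalization, an adjusted p under 0.05 and the hepatocyte covariate, 4 with array weights, and 1 to 4 when 1 mouse was left out (4 without Con,SD mouse 3). In STZ,BEZ vs. Con,SD the 9 higher genes became 5 under second quantile normalization, an adjusted p under 0.05 and the hepatocyte covariate, and 4 to 9 when 1 mouse was left out, with 17 to 22 lower genes. STZ,BEZ vs. STZ,SD kept 0 calls throughout. Leaving out 1 mouse moved the medians within -0.19 to -0.14, 0.08 to 0.13 and -0.07 to -0.02 in the 3 comparisons.

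Some differences close to 0 changed sign, none of them called except Mrpl51 with its own-chromosome probe set; the cause was not tested. In STZ,SD vs. Con,SD, Mrpl41 became 0.07 with the mean of its probe sets, 0.17 with the probe set on its own chromosome, and 0.00 without Con,SD mice 1, 3 and 4 together, where Mrpl18 became 0.03 and Mrps25 0.06. In STZ,BEZ vs. STZ,SD, Mrpl47 became 0.05 with the mean of its probe sets, Mrpl28 -0.02 and Mrps31 -0.01 under second quantile normalization, Mrpl28 0.00 with the hepatocyte covariate and Mrpl32 0.00 with the slow fibre covariate. In STZ,BEZ vs. Con,SD, Mrpl51 became 0.06 with the mean of its probe sets and 0.21 with the probe set on its own chromosome (adjusted p = 0.0816), and Mrps36 0.03 without Con,SD mice 1, 3 and 4 together. There the replicate block gave Mrpl28 0.01 and Mrps25 -0.05, second quantile normalization gave Mrpl33 -0.03 and Mrps25 -0.01, the hepatocyte covariate gave Mrpl33 -0.02, and the slow fibre covariate gave Mrpl28 0.01 and Mrpl52 0.01. Leaving out 1 mouse gave -0.08 to 0.01 for Mrpl41, -0.06 to 0.01 for Mrpl28, -0.10 to 0.01 for Mrps25 and -0.04 to 0.14 for Mrps18c in STZ,SD vs. Con,SD, where the replicate block gave Mrps18c -0.08 and Ppargc1a was 0.00 without Con,SD mice 1, 3 and 4 together. It gave -0.07 to 0.01 for Mrpl32, -0.06 to 0.04 for Mrpl47 and -0.01 to 0.06 for Mrpl28 in STZ,BEZ vs. STZ,SD, and -0.03 to 0.00 for Mrpl28, -0.07 to 0.00 for Mrpl52 and -0.02 to 0.09 for Mrps25 in STZ,BEZ vs. Con,SD.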
